A study of Mus musculus with 9 samples.

Results

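The genes of the respiratory chain that lie in the nucleus were followed in mouse brain RNA through 87 members out of 19938 genes measured. They were taken by name and not by their values: every gene whose probe set carried 1 symbol beginning with Nduf, Uqcr, Atp5, Cox4, Cox5, Cox6, Cox7 or Cox8, together with Sdha, Sdhb, Sdhc and Sdhd. The muscle isoforms Cox6a2 and Cox8b were left out by the same rule. By name 43 members belonged to complex I, of which 7 were its assembly factors Ndufaf1 to Ndufaf7 and not subunits, 4 to complex II, 8 to complex III, 15 to complex IV and 17 to complex V. Cox7c and Ndufb4 share their probe sets with another symbol and were not used.

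The respiratory chain sits in the inner membrane of mitochondria and supplies most of the ATP that neurons spend on ion pumping and synaptic transmission. Complex I takes electrons from NADH and complex II from succinate, ubiquinone carries them to complex III, and cytochrome c carries them on to complex IV, which reduces oxygen. Complexes I, III and IV pump protons, and complex V, the ATP synthase, lets them return and makes ATP. Apart from a few subunits encoded in mitochondrial DNA, all parts of these machines are made from nuclear genes, and complex IV has isoforms that replace each other between tissues.

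RNA from brain tissue was hybridised to 9 GeneChip Mouse Gene 1.0 ST arrays, 3 in each group, after the mice had finished a Morris water maze test of spatial memory. The control group were wild type C57/6J mice given saline. The model group were APP/PS1 mice, which carry transgenes of the amyloid precursor protein and presenilin on the same strain background, also given saline, and the HPYD group were APP/PS1 mice given the peptide HPYD, designed to hinder the assembly of amyloid into sheets, at 33 mg/mL. Saline and peptide went into the nose at 5 µL per day for 30 days. The APP/PS1 mice had been bought at 8 months of age, and the controls are described as being of the same age. Neither the line nor the promoter of the transgenes is named. It is not stated whether the 3 arrays of a group stand for 3 mice, and the p-values below therefore describe the scatter of these samples alone, which may be technical in part.

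Before the respiratory chain is described, the arrays need to be set against their labels. App, which encodes the precursor of amyloid, read between 12.56 and 12.62 on the control arrays and between 12.95 and 13.02 on the model arrays, both as log2 intensity. On the arrays labelled HPYD group 1 and 2 it read 12.98 and 13.01, but on the array labelled HPYD group 3 it read 12.53, below the controls. Prnp, the prion protein gene, followed suit, with 11.76 to 11.81, 12.42 to 12.55, and 12.54, 12.47 and 11.52. On both genes the array labelled HPYD group 3 was thus unlike the other arrays of APP/PS1 mice. The paper describes APP protein as similar in HPYD and control mice, and whether this array is mislabelled was not tested. Differences of the HPYD group are given without this array too where leaving it out turned their sign or moved them by over 1.5 times. Probe sets shared with another symbol are an exception. Neuronal markers marked all 9 arrays as brain, with a mean over 14 genes of 11.57 to 11.86. Between model and control group the median of these genes differed by -0.13 (11 of 14 lower), that of oligodendrocyte genes by 0.32 (7 of 7 higher), of astrocyte genes by 0.11 (7 of 8) and of choroid plexus genes by 0.74 (6 of 6), all beyond the members' 0.04 given below, and their part in it was not tested. Skeletal muscle genes, 28 of them, had a mean of 6.54 to 6.62 in the controls but of 8.45 and 9.93 on the arrays of model group 1 and 2 and 7.35 on that of HPYD group 2, and the other arrays lay between 6.58 and 6.74. Granulocyte genes were raised on the same 3 arrays. In whole tissue, fewer cells of a type and less RNA per cell cannot be told apart.

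The respiratory chain of the model group lay close to that of the control group. Over the 87 members the median difference between the model and control means was 0.04 on the log2 scale, or 1.03-fold, and 85 of the 87 (97.7%) differed by less than 0.2, which is 1.15-fold. Of all genes, 81.7% stayed within that bound. The member furthest from 0 was Cox7a1, the form of a small complex IV subunit made in heart and skeletal muscle, at 1.16, and the lowest difference was -0.20. No member passed limma's moderated test at an adjusted p under 0.05, as was true of all genes (0.0% called), and the smallest adjusted p among the members was 0.859. The 95% interval of the difference lay within 0.5 on either side of 0, or 1.41-fold, for 86 of the 87 members (98.9%, against 78.1% of all genes). Each interval stands for 1 gene alone and not for all 87 members together. It rests on the scatter of these samples, which may be technical in part. The shares of all genes, here and below, were not matched for intensity. Array medians over all probe sets were 6.69 to 6.82, and most members read higher than that.

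**Figure D1:**
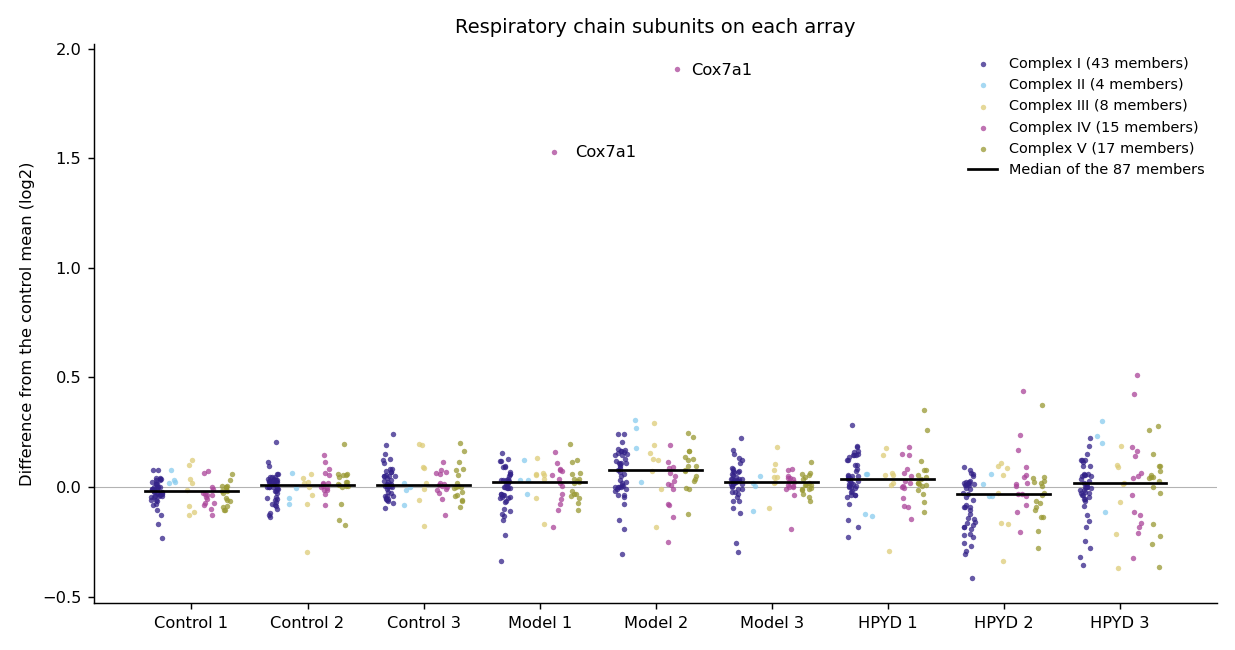
Difference of each of the 87 members from its mean over the control arrays (log2, vertical axis) on each of the 9 arrays, with dots coloured by complex and a black bar at the median. Outside Cox7a1, which stands 1.53 and 1.91 above the control mean on the arrays of model group 1 and 2, every member lies within 0.5 of its control mean on every array but for Cox6b2 at 0.51 on the array labelled HPYD group 3.

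Within this narrow range, 67 members had a higher and 20 a lower mean in the model group, whereas 45.0% of all genes were higher, but with the arrays shifted to 1 common median the split was 39 higher and 48 lower. The shift moved the median of the members from 0.04 to -0.0032 and that of all genes from -0.01 to -0.06. It moves every gene of an array alike, so the gap of 0.05 between members and all genes could not change. With quantile normalization 64 members were higher and the gap was again 0.05. At an unadjusted p under 0.05 from limma, 1 member was higher and 0 were lower, where 2.87% of all genes were higher and 2.05% lower. That member was Cox7a1. The analysis of variance from the study's general statistics section called 0 members at the same level, and 287 of all genes. The study names no test for the arrays. All 3 model arrays lay above all 3 control arrays for 7 members, which is 8.05% against 4.83% of all genes, and below them for 1 member, Ndufaf6, against 4.68%.

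Array by array, model group 2 held the highest values. The median of the members, as a difference from the control mean, was -0.02, 0.01 and 0.01 on the control arrays and 0.02, 0.08 and 0.02 on the model arrays. On the HPYD arrays it was 0.03, -0.03 and 0.02. The array of model group 2 was the highest of the 9 for 31 members (35.6%, against 14.2% of all genes), and that of HPYD group 2 was the lowest for 25 (28.7%, against 10.3%). Both arrays are among the 3 with raised muscle and granulocyte genes. The median difference between model and control group was 0.02 without model group 2, 0.02 with all 3 of these arrays left out and 0.03 with the muscle level as a covariate. Wherever these 3 arrays are left out, here and below, model group 3 is the only model array. The part of granulocytes was not tested.

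**Figure D2:**
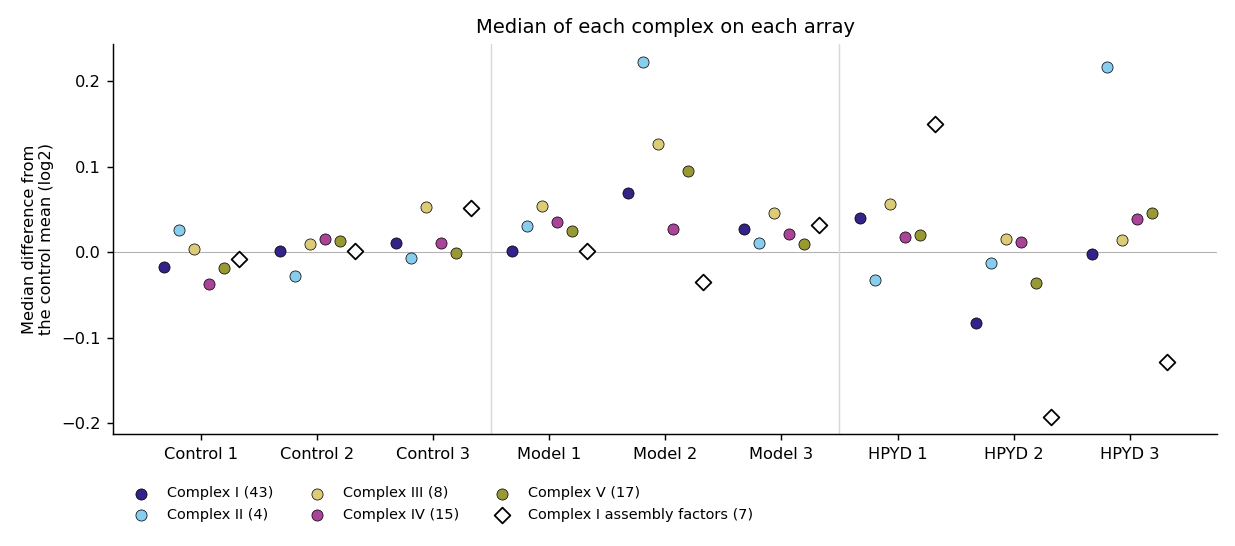
Median difference from the control mean (log2, vertical axis) of the members of each complex and of the complex I assembly factors on each of the 9 arrays, with the number of members in brackets. Complex II is highest on the arrays of model group 2 (0.22) and HPYD group 3 (0.22), and the assembly factors run from 0.15 on HPYD group 1 to -0.19 on HPYD group 2.

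In complex I, model and control means differed by a median of 0.03 over 43 members, from -0.20 to 0.12, with 33 higher and 10 lower, a median that became -0.01 with arrays shifted to 1 median. The 6 measured subunits of its catalytic core, which carry the flavin and iron-sulfur centres along which electrons run from NADH to ubiquinone, had a median of 0.07, with 6 of 6 higher as deposited and 5 of 6 after the shift. Ndufv1, which binds NADH and the flavin, read 10.68, 10.72 and 10.74 on the control arrays, 10.77, 10.77 and 10.76 on the model arrays and 10.75, 10.78 and 10.84 on the HPYD arrays. The controls were below every other array, yet the difference between model and control was only 0.05 (standard error 0.05), with p = 0.1 in a two-sided exact permutation test, a floor that 3 against 3 arrays cannot pass. Ndufs1, the largest iron-sulfur subunit of the core, differed by 0.12 (standard error 0.09) and Ndufv2, which holds an iron-sulfur centre beside the flavin, by 0.08 (standard error 0.08), or by 0.06 and 0.03 without model group 2. Ndufs8, another iron-sulfur subunit, differed by 0.07 (standard error 0.05) without overlap, and Ndufs7 and Ndufs3 by 0.07 and 0.03.

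Among the accessory subunits of complex I, Ndufs4, whose loss causes Leigh syndrome, had the lowest difference between model and control, at -0.18 (standard error 0.13). It read 11.30, 11.63 and 11.36 on the control arrays, 11.21, 11.39 and 11.13 on the model arrays and 11.25, 11.02 and 11.38 on the HPYD arrays, so that the groups overlapped. Ndufb11, a membrane arm subunit, differed by 0.09 (standard error 0.06). Ndufa4, named for complex I but found in complex IV, differed by 0.12 (standard error 0.09), or 0.06 without model group 2. Without control group 2, which was the highest array for Ndufs4, that gene differed by -0.08.

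The 7 assembly factors were split. Ndufaf1, which acts early in building the membrane arm, differed by 0.11 (standard error 0.09) and lay higher on every model array than on any control array. Ndufaf6, another early factor, read 6.76, 6.64 and 6.78 on the control arrays, 6.39, 6.57 and 6.61 on the model arrays and 6.74, 6.42 and 6.45 on the HPYD arrays. Its model arrays were all below the controls, by -0.20 (standard error 0.10; adjusted p = 0.859 from limma; exact two-sided permutation test, p = 0.1). Ndufaf3, which works with Ndufaf4 in joining the arms, differed by -0.14 (standard error 0.10) with overlapping arrays, a difference that turned to 0.02 once the 3 arrays with raised muscle genes were left out.

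Complex II, which is also the succinate dehydrogenase of the citric acid cycle, had the highest median of the complexes, at 0.09. This median remained positive, at 0.05, after the shift to 1 median. Its rank rested on 1 array: without model group 2 it was 0.02, below complex III at 0.05 and complex V at 0.03. The 4 subunits of complex II did not act as a block. Sdhd, a membrane anchor, read 10.09, 10.01 and 10.07 on the control arrays, 10.18, 10.33 and 10.11 on the model arrays and 10.12, 10.12 and 10.26 on the HPYD arrays. No control array reached the other groups, and model minus control was 0.15 (standard error 0.07; unadjusted p = 0.0811, adjusted p = 0.859 from limma). Leaving out model group 2 gave 0.09, and leaving out the arrays of raised muscle genes or adding the muscle covariate gave 0.05. The other anchor, Sdhc, differed by 0.12 (standard error 0.12) and by 0.03 without model group 2, which read 11.04 where the other model arrays read 10.76 and 10.75 and the controls 10.72 to 10.75. Sdha, the flavoprotein, differed by 0.07 (standard error 0.08), or 0.02 without model group 2, and Sdhb, the iron-sulfur subunit, by -0.04 (standard error 0.06).

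In complex III the median was 0.07 with 7 of 8 members higher, and 0.02 with 4 of 8 higher after the shift. Uqcrh, the hinge protein that helps cytochrome c dock, read 11.15, 11.18 and 11.15 on the control arrays, 11.23, 11.45 and 11.21 on the model arrays and 11.31, 11.25 and 11.35 on the HPYD arrays. Its model and HPYD arrays all lay above the controls, and model minus control was 0.13 (standard error 0.07; exact two-sided permutation test, p = 0.1). The value dropped to 0.06 when model group 2 was left out, to 0.05 when the arrays of raised muscle genes were, and to 0.03 with the muscle covariate. Uqcrq, a small subunit, differed by 0.12 (standard error 0.07), also without overlap. Uqcr11, another small subunit, went the other way, by -0.15 (standard error 0.12), with its model arrays between 10.19 and 10.28 inside the control range of 10.08 to 10.57. That value turned on the controls: it was -0.05 without control group 3 and -0.30 (unadjusted p = 0.00805 from limma) without control group 2. The core proteins Uqcrc1 and Uqcrc2 differed by 0.09 and 0.04, and Uqcrfs1, the Rieske iron-sulfur protein, by 0.03.

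Complex V had a median of 0.05 with 14 of 17 members higher, which became 0.00 with 9 of 17 higher after the shift. The catalytic subunits Atp5a1 and Atp5b differed by 0.08 (standard error 0.06) and 0.05 (standard error 0.05), or by 0.04 and 0.03 without model group 2. Atp5pb, the stalk that holds the catalytic head still, read 10.85, 10.91 and 10.79 on the control arrays and 10.96, 10.97 and 10.91 on the model arrays, so that the groups were separate, with a difference of 0.10 (standard error 0.09). Its HPYD arrays, at 11.11, 10.74 and 10.90, spanned both groups. Atp5g1, Atp5g2 and Atp5g3, which encode the same mature subunit of the rotor ring, differed by 0.07, 0.04 and 0.02, the first turning to -0.01 without model group 2.

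Complex IV was the complex with the lowest median, 0.02, which became -0.03 after the shift, and it also held the member furthest from 0. Without model group 2 its median was 0.018, and that of complex I was lower, at 0.0132. Cox7a1 read 7.42, 7.70 and 7.54 on the control arrays, 9.08, 9.46 and 7.59 on the model arrays and 7.70, 7.99 and 7.98 on the HPYD arrays. The arrays of model group 1 and 2 stood well above all others, while that of model group 3 lay among the controls. Model minus control was 1.16 (standard error 0.41), or 2.23-fold, with an unadjusted p of 0.0226 and an adjusted p of 0.859 from limma, and the exact two-sided permutation test gave p = 0.2. The difference was 0.04 with model group 1, model group 2 and HPYD group 2 left out, and model group 3 as the only model array. Model group 1 and 2 are the arrays on which Cox7a1 was high, so this value was bound to be near 0. The difference was 0.18 (unadjusted p = 0.401 from limma) with the muscle level as a covariate, which was itself highest on model group 1 and 2. It was 0.78 without model group 2 alone, and 1.72 (adjusted p = 0.0757 from limma) without model group 3.

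Model group 1 and 2, on which Cox7a1 was highest, are among the arrays with raised muscle genes. The match was not complete, since Cox7a1 read 7.99 on HPYD group 2 and 7.98 on HPYD group 3. The mean of the muscle genes on these was 7.35 and 6.74. The 2 muscle isoforms outside the 87 members were also highest on model group 1 and 2. Cox8b, the muscle form of another small complex IV subunit, read 6.05, 6.91 and 6.49 on the control arrays, 9.93, 10.10 and 7.19 on the model arrays and 7.29, 7.9978 and 6.90 on the HPYD arrays. Cox6a2, the muscle counterpart of Cox6a1, read 7.91, 8.16 and 8.15, then 8.65, 9.56 and 8.17, and then 8.17, 8.27 and 7.53. Of the 28 skeletal muscle genes, 28 were higher in the model group, with a median of 1.87, among them Acta1, the actin of muscle fibres, at 10.23 and 11.93 on the arrays of model group 1 and 2 and 7.67 to 7.88 on the controls, model group 3 and HPYD group 1. The 4 genes of the brown adipocyte list, a tissue in which Cox7a1 and Cox8b are also made, had means of 8.17 and 6.70 on the arrays of model group 1 and 2 and of 5.69 to 5.88 in the controls. With the muscle level of each array in the fit, the difference of Cox7a1 between model and control went from 1.16 to 0.18, and that between HPYD and model from -0.82 to -0.01. Because the muscle level was highest on model group 1 and 2, where Cox7a1 was also highest, such a drop was largely fixed in advance. The parts of muscle and fat were not tested.

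**Figure D3:**
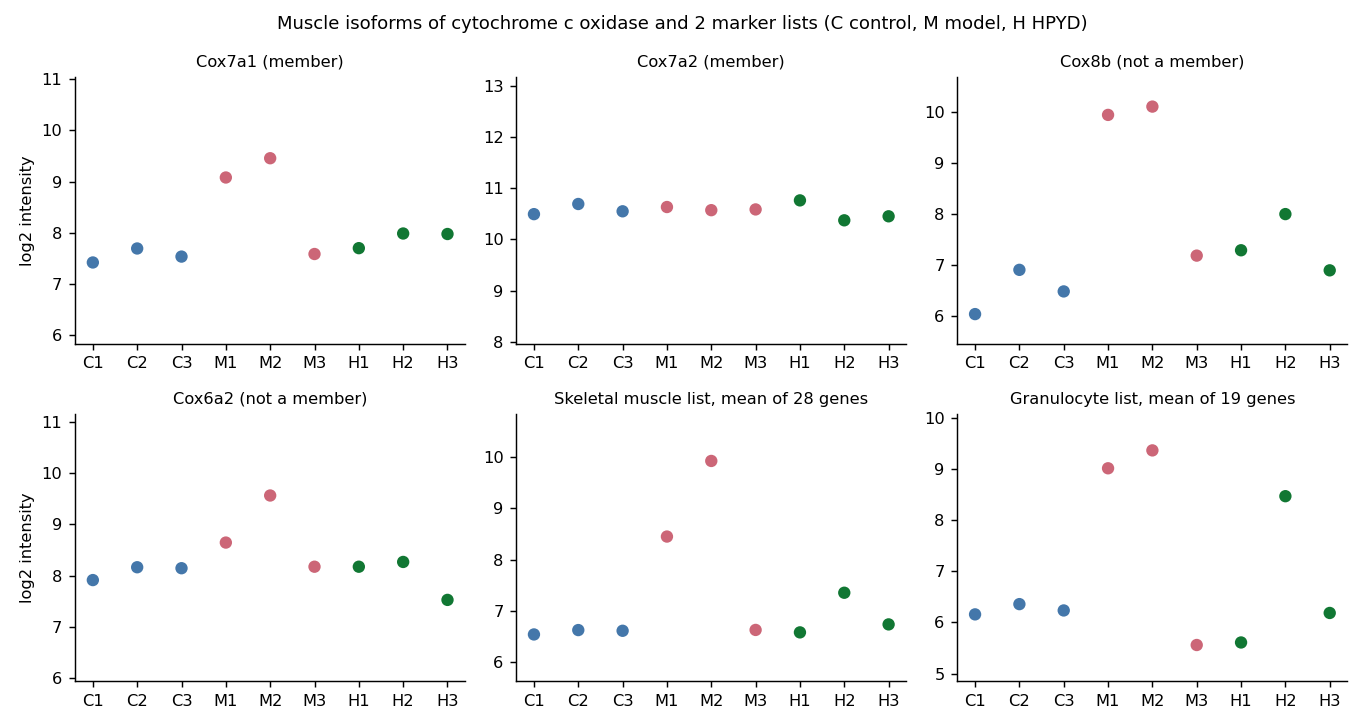
Log2 intensity (vertical axis, each panel spanning the same range) on the 9 arrays, C for control, M for model and H for HPYD, of Cox7a1 and of its broadly made counterpart Cox7a2, of the muscle isoforms Cox8b and Cox6a2, and the mean of the skeletal muscle and granulocyte lists. Cox7a1, Cox8b, Cox6a2 and both lists are high on M1 and M2 and lower on M3, whereas Cox7a2 stays between 10.37 and 10.76.

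The forms of complex IV subunits that most tissues make did not share this pattern. Cox7a2, the general counterpart of Cox7a1, read 10.49, 10.69 and 10.55 on the control arrays, 10.63, 10.57 and 10.59 on the model arrays and 10.76, 10.37 and 10.45 on the HPYD arrays, with a model minus control difference of 0.02 (standard error 0.10). Cox4i1, Cox5a, Cox5b and Cox6c differed by 0.06, 0.12, 0.04 and 0.05. Cox6a1, Cox6b1 and Cox8a differed by -0.10, -0.07 and -0.08, of which that of Cox6a1 turned to 0.02 once the arrays with raised muscle genes were left out. The restricted isoforms other than Cox7a1 had control means from 4.63 to 7.18 and differed by little. Cox6b2 and Cox7b2, made in testis, differed by 0.09 and -0.05, Cox8c by 0.01, and Cox4i2 and Ndufa4l2, which low oxygen induces, by 0.01 and -0.06.

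The promoters of 4 members are printed to show what the regions just before these genes look like. Cox7a1 and Cox7a2 are shown as the isoform pair described above, and Sdhd and Cox6b1 as subunits whose arrays did not overlap between groups. Each line holds the 250 bases before the RefSeq start on GRCm38.p6, 5′ to 3′ on the strand of the gene, and capitals mark a match to CCGGAAG on either strand, the core letters that ETS factors such as GABP bind.
Cox7a1 (chr7:30183921-30184170, plus strand): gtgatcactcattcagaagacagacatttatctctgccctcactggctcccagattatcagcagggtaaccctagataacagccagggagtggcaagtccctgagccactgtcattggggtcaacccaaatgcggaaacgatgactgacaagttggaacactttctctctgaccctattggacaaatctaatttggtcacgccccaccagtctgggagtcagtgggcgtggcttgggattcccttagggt
Cox7a2 (chr9:79759854-79760103, minus strand): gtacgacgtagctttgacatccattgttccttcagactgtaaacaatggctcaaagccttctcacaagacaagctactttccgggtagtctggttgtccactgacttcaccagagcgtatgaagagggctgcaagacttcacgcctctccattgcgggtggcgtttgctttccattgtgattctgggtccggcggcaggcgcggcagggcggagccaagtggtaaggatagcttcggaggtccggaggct
Sdhd (chr9:50603850-50604099, minus strand): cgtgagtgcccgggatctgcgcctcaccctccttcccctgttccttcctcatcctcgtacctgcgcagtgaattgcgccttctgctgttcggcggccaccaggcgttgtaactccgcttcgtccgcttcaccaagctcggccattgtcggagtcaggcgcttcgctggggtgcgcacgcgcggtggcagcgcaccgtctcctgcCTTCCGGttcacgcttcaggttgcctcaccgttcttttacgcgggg
Cox6b1 (chr7:30626115-30626364, minus strand): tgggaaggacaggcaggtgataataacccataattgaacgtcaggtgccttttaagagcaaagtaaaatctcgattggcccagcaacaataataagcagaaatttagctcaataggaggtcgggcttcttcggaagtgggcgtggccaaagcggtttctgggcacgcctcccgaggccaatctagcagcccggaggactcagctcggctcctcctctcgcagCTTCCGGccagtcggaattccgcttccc

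Sdhd and Cox6b1 each held 1 such match in these bases and the Cox7a pair none. Over the RefSeq windows of 300 bases, from 250 before to 50 after the start, 77 windows belonged to 72 members. CCGGAAG was found in 18 member windows (23.4%) and in 8.86% of all 32851 windows. For the other motifs searched on both strands, GCGCATGC of NRF1 was in 15.6% of member windows and 2.71% of all, AANATGGC of YY1 in 23.4% and 6.05%, and CAAGGTCA of the estrogen-related receptor alpha in 5.19% and 1.56%. These factors are known regulators of respiratory chain genes. In the member windows no matches of different motifs overlapped. Median GC content was 58.3% in member windows and 52.7% in all. A match is a run of letters and not a measured site.

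The comparison of the HPYD group with the model group asked whether the peptide moved these genes in APP/PS1 mice. It shares the model arrays with the comparison above, so an array that read high in the model group enters both with opposite sign. The median difference was -0.04 over the 87 members, with 24 higher and 63 lower, and it kept its sign at -0.05 with arrays shifted to 1 median and at -0.02 with quantile normalization. Over all genes the median was 0.02 and 57.5% were higher. No member passed at an adjusted p under 0.05 (0.0% of all genes), with a smallest adjusted p of 1 from limma. At an unadjusted p under 0.05, 0 members were higher and 0 lower, where 1.22% and 0.752% of all genes were. The analysis of variance called 1 member, Atp5d, among 137 of all 19938 genes. Without HPYD group 1 limma called 1 higher and 9 lower, where 4.2% and 2.1% of all genes were called. All HPYD arrays lay above all model arrays for 0 members (2.24% of all genes) and below them for 4, or 4.60% against 0.983%. Without the array labelled HPYD group 3 the median was -0.04 and the smallest adjusted p from limma again 1. With the 3 arrays of raised muscle genes left out, and model group 3 as the only model array, the median turned to 0.02.

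The 4 members below the model arrays were Atp5d, Cox6b1, Ndufb2 and Uqcrc2. Cox6b1, which sits where the monomers of complex IV meet, read 11.91, 11.76 and 11.85 on the control arrays, 11.73, 11.76 and 11.83 on the model arrays and 11.69, 11.73 and 11.67 on the HPYD arrays. Its HPYD arrays were lower than all others, though HPYD group 2 and model group 1 differed only past the second decimal. The differences of means were -0.08 (standard error 0.06) against the model and -0.14 (standard error 0.06) against the control group. Atp5d, the delta subunit of the rotor, differed by -0.04 (standard error 0.05), Ndufb2, an accessory subunit, by -0.11 (standard error 0.10) and Uqcrc2 by -0.04 (standard error 0.05). Apart from Cox7a1 at -0.82 (standard error 0.41), the lowest difference was that of Atp5e, the epsilon subunit of the rotor, at -0.19 (standard error 0.10; unadjusted p = 0.0761, adjusted p = 1 from limma). From the arrays of HPYD group 1 and 2 alone it was -0.13, and Uqcrb and Sdhc, at -0.21 and -0.20, were then lower. Atp5e read 9.03, 9.14 and 9.15 on the model arrays and 9.05, 8.91 and 8.78 on the HPYD arrays, with an overlap at HPYD group 1.

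After Atp5e and Cox7a1, the smallest p-values from limma among the members lower in HPYD than in model were those of small accessory subunits. By size of the difference other kinds were about as low, such as the assembly factor Ndufaf1 and the core subunit Ndufs1, both at -0.12. Uqcr10, Uqcrb, Ndufs5 and Ndufc1 differed by -0.18, -0.17, -0.17 and -0.12, with standard errors of 0.11, 0.11, 0.09 and 0.08. Without the array labelled HPYD group 3 these were -0.09, -0.21, -0.07 and -0.18, which brought Uqcr10 and Ndufs5 nearer to 0 and took Uqcrb and Ndufc1 further from it. On the side of higher values, Cox6b2 differed by 0.15 (standard error 0.12), which was 0.02 without that array. Ndufb7, Ndufa5, Ndufa12 and Ndufa3, accessory subunits of complex I, differed by 0.09, 0.08, 0.07 and 0.06, and Cox7b2 by 0.09, or 0.03 without that array.

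By complex, the HPYD minus model medians were -0.05 for complex I (34 of 43 lower), -0.05 for complex II (3 of 4), -0.04 for complex III (6 of 8) and -0.03 for complex V (13 of 17), the last turning to 0.0042 with quantile normalization. For complex IV the median was 0.01 with 7 of 15 lower, and -0.0013 with arrays shifted to 1 median. Without the array labelled HPYD group 3 the medians were -0.05, -0.07, -0.06 and -0.03 for complexes I, II, III and V, and that of complex IV turned to -0.02 with 9 of 15 lower. Within complex I, HPYD group 2 was the lowest of the 9 arrays for 17 of its 43 members (39.5%), and the median of the complex there was -0.08. The complex I assembly factors had a median of -0.09 with 6 of 7 lower, and of -0.05 with 6 of 7 lower without the array labelled HPYD group 3. On the array of HPYD group 1 their median was 0.15 above the control mean, and on those of HPYD group 2 and 3 it was -0.19 and -0.13.

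**Figure D4:**
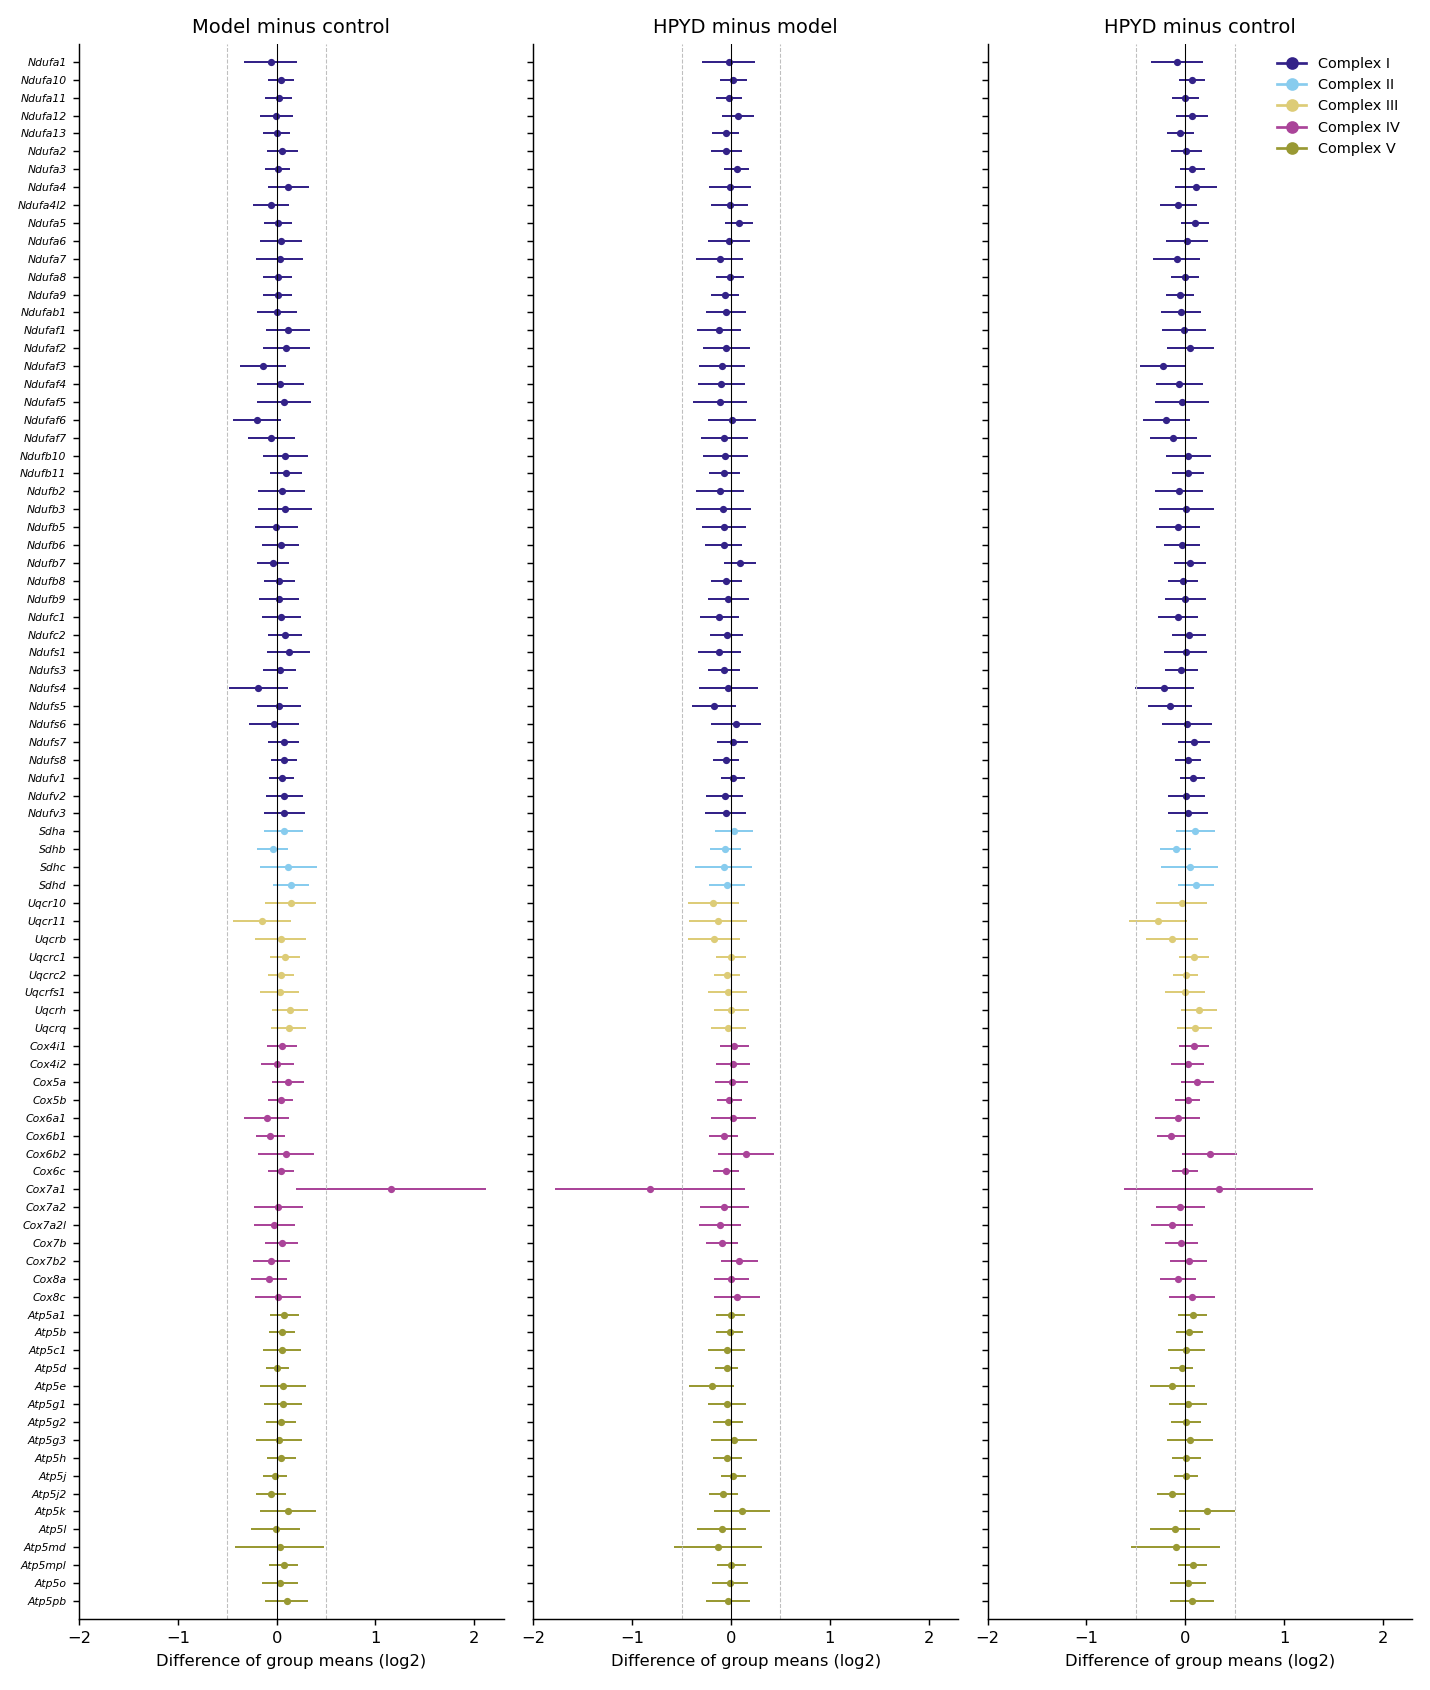
Difference of group means (log2, horizontal axis) with its 95% interval from limma for each of the 87 members, coloured by complex, in the 3 comparisons, with dashed lines at 0.5 on either side of 0. The intervals of 86, 85 and 82 members lie between the dashed lines, and Cox7a1 stands apart in each panel by the width of its interval.

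The HPYD group was also compared with the control group, to ask how far treated APP/PS1 mice were from normal mice. The median difference was 0.01, which became -0.04 with arrays shifted to 1 median while that of all genes moved from 0.01 to -0.04 as well. As deposited 48 members were higher and 39 lower, against 54.3% higher over all genes, and after the shift 22 and 65. Of the 87 members, 81 (93.1%) differed by less than 0.2, against 82.4% of all genes. No member passed at an adjusted p under 0.05 (0.0% of all genes), with a smallest adjusted p of 0.860 from limma. At an unadjusted p under 0.05, 0 members were higher (2.0% of all genes) and 2 were lower (1.24%), and without the array labelled HPYD group 3 none were. The analysis of variance again called Atp5d, among 241 of all genes. Without HPYD group 1 limma called 2 higher and 5 lower, where 5.04% and 4.02% of all genes were called. Without the array labelled HPYD group 3 the median difference was -0.0039. The HPYD arrays lay above all controls for 4 members (4.60%, against 4.78% of all genes) and below them for 5 (5.75%, against 4.74%).

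The 2 members at an unadjusted p under 0.05 were Cox6b1 and Ndufaf3. For Cox6b1 the unadjusted p was 0.0445 and the adjusted p 0.860 from limma, and without the array labelled HPYD group 3 the difference was -0.13. Ndufaf3 read 10.32, 10.16 and 10.36 on the control arrays, 10.16, 9.98 and 10.30 on the model arrays and 10.13, 10.06 and 9.96 on the HPYD arrays. All HPYD arrays were below the controls, by -0.23 (standard error 0.10; unadjusted p = 0.0455 from limma), or -0.18 without the array labelled HPYD group 3. The lowest difference was that of Uqcr11, -0.28 (standard error 0.12), whose lowest control array lay within the HPYD range.

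Of the 4 members above all controls, Ndufv1, Sdhd and Uqcrh differed by 0.07, 0.11 and 0.14 and were also above the controls in the model group. These were 0.05, 0.06 and 0.12 from the arrays of HPYD group 1 and 2 alone. The other member was Cox7a1 at 0.34 (standard error 0.41). These 2 comparisons share the control arrays, so low control values enter both. Below the controls lay Atp5j2 by -0.14 (standard error 0.06), Atp5d and Ndufa13 by -0.04 and -0.05, and the 2 members described above. Ndufs4 and Ndufaf6 differed by -0.21 and -0.19 with standard errors of 0.13 and 0.10. On the higher side, Cox6b2 differed by 0.25 (standard error 0.12), Atp5k, a membrane subunit of complex V, by 0.22 (standard error 0.12), Cox5a by 0.12 (standard error 0.07) and Ndufa5 by 0.10 (standard error 0.06). Without the array labelled HPYD group 3 that of Cox6b2 was 0.12 and that of Atp5k 0.19.

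**Figure D5:**
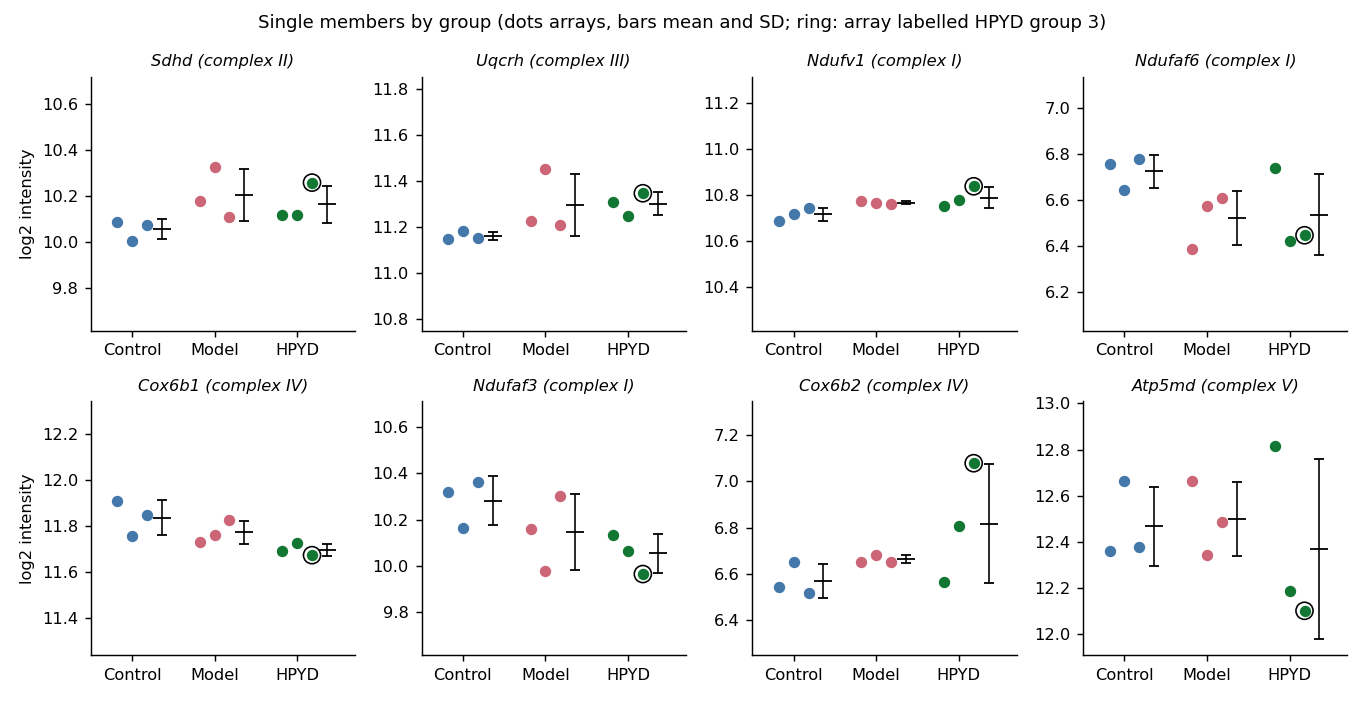
Log2 intensity (vertical axis, each panel spanning the same range) of 8 members on each array by group, with dots for arrays, a bar for the mean and its SD (n = 3), and a ring around the array labelled HPYD group 3. Cox6b1 on the HPYD arrays, between 11.67 and 11.73, lies lowest, Sdhd, Uqcrh and Ndufv1 lie lowest in the controls, and the HPYD arrays of Cox6b2 and Atp5md are spread widest.

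The array labelled HPYD group 3 differed from the mean of the other HPYD arrays by a median of 0.02 over the members, with 50 higher and 37 lower, beside 0.02 over all genes. For 75 of the 87 the difference was under 0.2. Cox6b2 read 6.56 and 6.81 on the arrays of HPYD group 1 and 2 and 7.08 on the third, and the difference of 0.39 was the highest, followed by Sdhc at 0.38 and Atp5g3 at 0.31. Atp5md, a small membrane subunit of complex V, was lowest at -0.40, with 12.82, 12.19 and 12.10 on the 3 arrays, so the drop came between the first and the other arrays. Ndufs5 and Cox7a2l, which helps complexes III and IV join, followed at -0.31 and -0.28. The second probe set of Cox7a2l, not used here, gave 0.06 for HPYD minus model where the first gave -0.11, or -0.02 without the array labelled HPYD group 3. Without that array Atp5md went from -0.13 to 0.0047 against the model and from -0.10 to 0.04 against the control group.

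Genes around the respiratory chain were read from lists set by function. Of 16 citric acid cycle and pyruvate dehydrogenase genes, which feed electrons into the chain, 15 were higher in the model than in the control group with a median of 0.06, and 9 were higher with a median of 0.02 after the shift to 1 median. Fh1, the fumarase that follows complex II in the cycle, differed by 0.20 (standard error 0.08) and Dlst, a subunit of the oxoglutarate dehydrogenase, by 0.16 (standard error 0.06). They were the 2 of the 16 at an unadjusted p under 0.05 from limma, where 2.87% of all genes were higher at that level, and none passed after adjustment. Fh1 read 10.51, 10.64 and 10.52 on the control arrays and 10.71 to 10.83 on the model arrays, and it stayed at 0.21 (standard error 0.08) in the HPYD group against the controls.

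Other assembly factors and electron carriers, 44 genes, had a median of -0.03 in the model group against the controls and -0.05 in the HPYD group, with 28 and 33 lower. Coa5, an assembly factor of complex IV, differed by -0.25 (standard error 0.09) between HPYD and control group. In that comparison it was the only one of the 44 at an unadjusted p under 0.05 from limma, where 1.24% of all genes were lower. Cycs, which encodes cytochrome c, read 12.18, 12.35 and 12.10 on the control arrays, 12.32, 12.29 and 12.22 on the model arrays and 12.36, 11.93 and 11.92 on the HPYD arrays. The 2 mitochondrially encoded subunits measured showed the same arrays as low. COX2 of complex IV read 13.15, 12.80 and 12.75 on the HPYD arrays against 12.97 to 13.06 in the controls, and ND3 of complex I 12.87, 12.53 and 12.44 against 12.68 to 12.92.

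Regulators of mitochondrial biogenesis, 18 genes, had medians of 0.03, -0.01 and -0.0002 in the 3 comparisons. The first became -0.01 with arrays shifted to 1 median, and the others -0.05 and -0.02 without the array labelled HPYD group 3. Of these genes 0 reached an unadjusted p under 0.05 in any comparison, where 0.752% to 2.87% of all genes did in each direction. Ppargc1a, the coactivator that drives mitochondrial biogenesis, stayed between 10.21 and 10.32 on all 9 arrays. Gabpa, a subunit of GABP, differed by 0.12 (standard error 0.06) between model and control, and Esrrg, an estrogen-related receptor, by 0.43 (standard error 0.32). Esrrg read 9.62 on the array labelled HPYD group 3 and 9.31 on that of model group 2, above 8.21 to 8.55 in the controls. Among 12 genes of coenzyme Q synthesis, Coq8a, a kinase-like protein abundant in muscle, was the only one at an unadjusted p under 0.05. For HPYD against model, where 0.752% of all genes were lower at that level, it differed by -0.42 (standard error 0.17). It read 9.18 and 9.39 on the arrays of model group 1 and 2 and 8.57 to 8.91 on all others, and these are arrays with raised muscle genes.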

How the data were processed

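Groups of the 9 arrays follow the sample labels. The authors deposited 1 table of log2 intensities over 35556 probe sets. MAS5 appears, with no version, in the submitters' processing notes, and how the arrays were normalized is not given in the sources used. Values ran from 2.37 to 14.01 and array medians from 6.69 to 6.82, and they were used as they are. Gene symbols are those of the platform annotation (21789 probe sets with 1 symbol, 1621 with several, 12146 unnamed here). Where a gene had several probe sets the brightest was taken, which applied to 17 of the 87 members, and all 87 matched RefSeq by Entrez identifier. Columns left unused numbered 0.

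A joint fit of the 3 groups used limma 3.58.1 in R 4.3.3 with no covariate and 6 residual degrees of freedom, and p-values were adjusted by Benjamini-Hochberg over 19938 genes. The fit was tested on simulated data. Single values were compared with exact permutation tests. Counts and medians of members carry no test. Array numbers limit the precision, and levels of different probe sets were not compared.

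Members and lists were chosen with earlier results of these data known. Named members were, in each comparison, the 6 with the smallest p in each direction, the isoform families, the Sdh and core complex I subunits, up to 3 genes per pathway list, and the 3 in each direction furthest from the other HPYD arrays on the array labelled HPYD group 3. Members whose arrays did not overlap, other subunits, Acta1, Cycs, Ppargc1a and the printed promoters were added after their values were seen. The alternatives changed the normalization, the variance model, the dim genes kept and the arrays in the fit, or added array weights, the replicate number as a block, the mean of probe sets, muscle level as a covariate, a narrower set of members, and the test of the study's statistics section.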

Additional observations from a re-analysis of the deposited data

How the results depend on the processing

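No member passed at an adjusted p under 0.05 from limma under any alternative, in any of the 3 comparisons. At an unadjusted p under 0.05, the count without HPYD group 1 went from 0 to 10 members (1 higher, 9 lower, against 4.2% and 2.1% of all genes) for HPYD against model. For HPYD against control it went from 2 to 7 (2 higher, 5 lower, against 5.04% and 4.02% of all genes), as it did with array weights (4.03% and 2.87%). With arrays shifted to 1 median, the members' median became -0.0032 (model against control) and -0.0426 (HPYD against control), by construction of the shift, since all genes moved with it. With the 3 arrays of raised muscle genes left out, the median for HPYD against model was 0.0205, from 1 model array. Leaving out 1 array at a time, the median for HPYD against control ran from -0.0269 (without HPYD group 1) to 0.0305 (without HPYD group 2). With the arrays of raised muscle genes left out, or their level as a covariate, model against control turned to 0.0212 and 0.0279 for Ndufaf3 and to 0.0239 and 0.0267 for Cox6a1, and HPYD against model turned to 0.2523 for Cox7a1 with those arrays left out. This tally of single members covered only those with the smallest p from limma in each direction of each comparison, and Cox7a1. Its other 734 values kept their direction and did not pass the threshold. Members outside the tally turned as well. Atp5g1 in model against control went from 0.0682 to -0.0107 without model group 2. Atp5md in HPYD against model went from -0.1295 to 0.0047 without the array labelled HPYD group 3. The test of the study's statistics section, an analysis of variance with Student-Newman-Keuls, called 0 members in model against control and Atp5d in both other comparisons unadjusted, and 0 after adjustment. Of all genes it called 287 in model against control, 137 in HPYD against model and 241 in HPYD against control unadjusted.

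The replicate block left the count of members at an adjusted p under 0.05 at 0 and the medians at 0.0413, -0.0406 and 0.0083. Same-numbered arrays correlated by -0.32 to 0.18 in their deviations, and in 4 of 18 cases an array correlated best with its own number, so the numbers do not pair the arrays. The number of arrays limits the precision, and the median standard error was 0.0769 for members and 0.0977 for all genes.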

Other observations

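Some members had the same deposited value on several arrays. For 18 of the 87 (20.7%) the value was the same to 4 decimals on 3 or more of the 9 arrays, against 25.2% of all genes, and for Ndufb6, an accessory subunit of complex I, it was the same on 6. A tie can lower the SD of a group only where it falls within that group, as for Ndufb6, whose control SD was 0.0. Others lay between groups, such as that of Cox7a2l at 8.50 on control group 2, model group 1 and HPYD group 2. Probe sets shared with another symbol, left out of the members, gave values within the members' range. The 3 of Cox7c differed by 0.04 to 0.06 between model and control and by -0.14 to -0.12 between HPYD and model. The 2 of Ndufb4 differed by 0.07 to 0.08 and by -0.11 to -0.09. On the HPYD arrays those of Ndufb4 read 11.73, 11.58 and 11.47, and 12.04, 11.92 and 11.81, with the array labelled HPYD group 3 the lowest of all 9. For Cox7c that array and HPYD group 2 were below all others. Differences of these probe sets without the array labelled HPYD group 3 were not computed.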
